A study of Mus musculus with 12 samples.

Results

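The 33 genes described here are marker genes of T cells, cytotoxic lymphocytes, B cells and plasma cells, with a pair of genes shared by many leukocytes. They were the rows of the deposited mouse count table whose Ensembl identifier maps to a symbol on a written list, 33 of 37681 genes in all. The list holds 16 T cell genes, 5 cytotoxic genes, 8 B cell genes, 2 plasma cell genes and 2 shared leukocyte genes. RNA of kidney cortex, cut as a thin outer slice, was sequenced from 3 TRACK mice (TG+, genotype TRACK/gamma-HIF1alphaM3) and 3 wild-type littermates (TG−). All 6 mice were untreated C57BL/6 males, 18 months old, and the 2 kidneys of each mouse gave 1 library each. The TRACK transgene expresses a mutated, constitutively active form of the transcription factor HIF1α in proximal tubule cells, and the mice model clear cell renal cell carcinoma. The study asked which genes this active HIF1α changes in the cortex. No lymphocyte was sorted or purified, so each value is the RNA of a whole cortex slice.

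T cells recognise peptides through a receptor that signals through the CD3 chains, with CD4 or CD8 as coreceptor on the helper and the killer subset. B cells signal through surface antibody coupled to the CD79 pair, and plasma cells, their descendants, secrete antibody in bulk. Kidney cortex normally holds few lymphocytes, and in chronic kidney disease and tumours they gather around tubules and vessels.

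Values are given throughout for the TG+ mice 43-29, 43-49 and 43-75 and for the TG− mice 43-26, 43-50 and 43-76, in this order. The reads of the 2 kidneys of a mouse, which are not independent samples, were summed to between 48052131 and 60506785 reads per mouse. Levels are CPM, that is, reads scaled to library size with TMM factors. The genotypes were compared with edgeR's quasi-likelihood test, adjusted by the Benjamini-Hochberg method over 19399 tested genes, and the study's own limits decided a call (adjusted p below 0.01, and more than 2-fold higher or less than 0.5 of the TG− level). Car9, a classical HIF1α target, stood at 166, 122 and 155 CPM in TG+ and at 11.7, 14.8 and 17.6 CPM in TG−. Hif1a itself did not separate the groups (log2 fold change -0.12, standard error 0.09, adjusted p = 0.343 in edgeR's test), and the count table has no row of its own for the transgene. The 10 genes of the kidney tubule list had a summed level of 26860 to 29090 CPM in TG+ and 33380 to 35340 CPM in TG−. Kap made up the largest part, with means of 16180 CPM in TG+ and 17070 CPM in TG−. Nphs1, a podocyte gene in this list, stood at only 29.0 and 26.4 CPM.

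TG+ cortex had higher mRNA levels of some T cell, B cell and plasma cell genes and of a shared leukocyte gene, and 1 cytotoxic gene was called from few reads. The largest changes were those of Jchain, Cd79a and Mzb1, genes of plasma cells and B cells. Of the 33 genes, 11 were called higher and none was called lower in TG+ by edgeR's test, with none lower at an unadjusted p under 0.05 or by DESeq2 either. Among all tested genes 3.77% were called higher and 0.211% lower. The 33 genes were chosen with earlier results of these data known, so counts set beside shares of all genes are not a test. The 11 were Cd3e, Cd4, Cd6, Cd28 and Il7r of the T cell genes, Prf1 of the cytotoxic genes, Cd79a and Cd79b of the B cell genes, both plasma cell genes Jchain and Mzb1, and the shared gene Ltb. At an adjusted p below 0.05 without a fold limit, 18 of the 33 were higher, against 15.4% of all tested genes, and none was lower. In 24 of the 33 genes every TG+ mouse stood above every TG− mouse, against 23.4% of all tested genes. The 24 include Pax5, which was not tested. In 17 of the 33 each of the 6 TG+ libraries stood above each of the 6 TG− libraries, against 13.4% of all tested genes. In a fit without a filter on low counts the log2 fold changes of the 33 genes had a median of 1.16, and those of all 27472 genes 0.017.

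**Figure D1:**
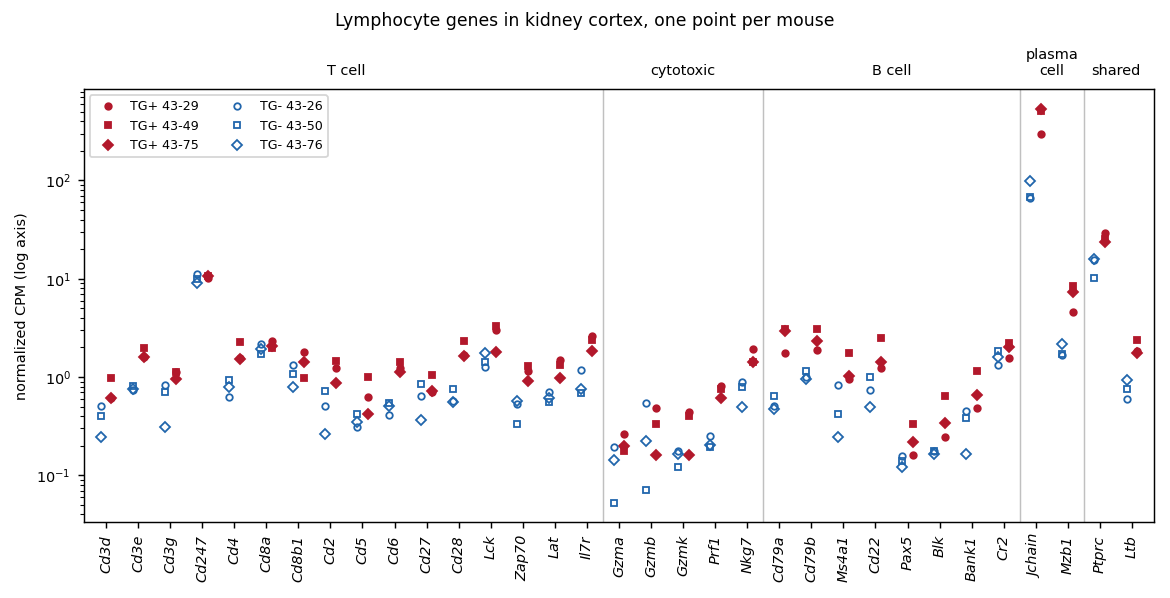
Normalized CPM (log axis) of the 33 genes in each mouse, with filled red symbols for the 3 TG+ mice and open blue symbols for the 3 TG− mice, ordered by cell type. Jchain lies far above all other genes, and in 24 of the 33 genes the red symbols all lie above the blue ones.

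Most of these genes were read from few reads. Jchain had 14754, 29020 and 26987 reads in the TG+ mice, whereas every T cell gene other than Cd247 had fewer than 200 reads in every mouse. Gzma, Gzmk and Pax5 did not pass the filter on low counts (an abundance equal to 10 reads in a library of median size, 0.193 CPM, in at least 3 mice), and 30 of the 33 genes were tested. In 4 of the 30, Gzmb, Prf1, Blk and Bank1, fewer than 3 TG− mice reached that level. Prf1, Blk and Bank1 reached it in all 3 TG+ mice, so they were tested because of their TG+ values, whereas Gzmb reached it in 2 mice of each genotype. In bulk RNA a larger number of lymphocytes and more RNA per lymphocyte cannot be told apart.

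The 250 bases before the RefSeq transcription start are shown for 4 genes called higher and, for comparison, for Cd8a, which was not called. They are RefSeq sequences on GRCm38.p6, printed 5′ to 3′ on the strand of the gene, each read from a table that held such windows for 24 of the 33 genes. Capitals mark matches, on either strand, to the HIF core ACGTG, its variant GCGTG, the ETS-type motif AGGAAGT and the E-box CAGGTG.
Cd3e, chr9:45009612-45009861, minus strand: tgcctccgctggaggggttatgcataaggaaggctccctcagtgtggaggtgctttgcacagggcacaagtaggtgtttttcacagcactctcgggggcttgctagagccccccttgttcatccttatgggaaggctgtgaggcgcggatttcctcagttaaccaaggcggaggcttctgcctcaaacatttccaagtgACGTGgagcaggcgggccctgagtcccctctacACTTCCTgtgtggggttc
Cd79a, chr7:24897247-24897496, plus strand: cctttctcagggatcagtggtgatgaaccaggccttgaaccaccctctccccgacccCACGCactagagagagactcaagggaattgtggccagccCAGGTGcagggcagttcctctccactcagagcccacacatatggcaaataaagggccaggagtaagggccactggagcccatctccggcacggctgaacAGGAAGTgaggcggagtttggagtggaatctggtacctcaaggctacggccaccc
Jchain, chr5:88527898-88528147, minus strand: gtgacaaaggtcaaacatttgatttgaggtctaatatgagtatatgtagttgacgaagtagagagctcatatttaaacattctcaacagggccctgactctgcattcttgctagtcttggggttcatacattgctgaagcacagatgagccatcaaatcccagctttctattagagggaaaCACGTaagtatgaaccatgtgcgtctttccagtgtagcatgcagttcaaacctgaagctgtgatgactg
Prf1, chr10:61297586-61297835, plus strand: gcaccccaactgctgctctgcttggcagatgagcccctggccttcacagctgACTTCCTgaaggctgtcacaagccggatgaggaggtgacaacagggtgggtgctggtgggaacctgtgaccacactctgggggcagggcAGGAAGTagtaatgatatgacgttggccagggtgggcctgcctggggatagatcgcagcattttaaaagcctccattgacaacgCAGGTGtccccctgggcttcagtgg
Cd8a, chr6:71373177-71373426, plus strand: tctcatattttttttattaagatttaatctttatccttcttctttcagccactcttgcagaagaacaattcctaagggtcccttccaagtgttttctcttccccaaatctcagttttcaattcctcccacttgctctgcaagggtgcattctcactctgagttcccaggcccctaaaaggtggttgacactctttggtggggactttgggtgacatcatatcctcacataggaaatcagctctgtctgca

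The start differs between annotations: the GENCODE M21 gene begins 116 bases before the RefSeq start of Cd79a, so that part of the window lies inside that gene model, 16 bases before that of Cd3e and 3 bases before that of Prf1, and 6 bases after that of Jchain. The bases that follow the RefSeq start were found in a GENCODE transcript of the gene for the other 4 windows and were not found for Jchain. The window of Cd8a held none of these motifs, and that of Prf1 held the ETS-type motif at 2 places. Over the 28 windows of the 24 genes, AGGAAGT was present in 39.3%, against 7.69% of all 32851 windows of the table. CAGGTG was present in 50.0% of the windows of these genes and in 17.2% of all windows. ACGTG was present in 21.4% against 16.6%, and GCGTG in 14.3% against 28.2%. The octamer ATTTGCAT, known from antibody gene promoters, was in none of the 28 windows and in 1.60% of all windows. The windows of 1 gene with several starts overlap, and a match is a description of letters, not a binding site.

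Among the T cell genes, 5 of 16 were called higher in TG+, 9 of 16 were higher at an adjusted p below 0.05 without a fold limit, and 11 of 16 separated the 3 TG+ from the 3 TG− mice. The shares of all tested genes were 3.77%, 15.4% and 23.4%. The list's median log2 fold change was 0.97 in the unfiltered fit. The summed level of the 16 genes was 29.2 to 35.6 CPM in TG+ and 19.6 to 23.4 CPM in TG−, and Cd247 alone made up a large share of it. Without Cd247 the other 15 genes summed to 22.7, 24.9 and 18.5 CPM in TG+ and to 12.3, 11.9 and 10.6 CPM in TG−.

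The CD3 chains pass the signal of the T cell receptor into the cell. Cd3e (ENSMUSG00000032093, chr9:44998740-45009627 on GRCm38) stood at 1.60, 1.99 and 1.59 CPM in the TG+ mice and at 0.741, 0.805 and 0.757 CPM in the TG− mice. It rose by 1.17 on the log2 scale (standard error 0.17, adjusted p = 0.00243 in edgeR's test). The TG− mice lay close together and the groups did not overlap, also library by library. Cd3d stood at 0.607, 0.987 and 0.617 CPM in TG+ and at 0.507, 0.403 and 0.246 CPM in TG−, and its log2 difference was 0.93 (standard error 0.32, adjusted p = 0.067 by edgeR). Cd3g stood at 1.11, 1.13 and 0.956 CPM against 0.838, 0.7004 and 0.307 CPM, and its log2 difference was 0.78 (standard error 0.32, adjusted p = 0.111 by edgeR). For both genes the groups did not overlap, but TG− mouse 43-76 lay well below the other two, and neither gene passed the test. Cd247, the zeta chain, stood at 10.1, 10.7 and 10.7 CPM in TG+ and at 11.1, 10.03 and 9.05 CPM in TG−, and the groups overlapped (log2 fold change 0.06, standard error 0.09, adjusted p = 0.690 in edgeR's test). It had the highest CPM of the T cell genes. On GRCm38 it overlaps Pou2f1, a transcription factor gene expressed in most cells, and Gm16565, and the handling of strand in the counts is not given in the sources used here.

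Of the 3 coreceptor genes Cd4 was called and both CD8 chains were not. Cd4, the helper coreceptor (ENSMUSG00000023274, chr6:124864692-124888221), stood at 1.58, 2.26 and 1.53 CPM in TG+ and at 0.624, 0.928 and 0.798 CPM in TG−. The groups were apart by 1.19 on the log2 scale (standard error 0.23, adjusted p = 0.00810 in edgeR's test). Cd8a, the alpha chain of the killer coreceptor (ENSMUSG00000053977, chr6:71373427-71379173), stood at 2.35, 1.98 and 2.05 CPM in TG+ and at 2.16, 1.70 and 1.92 CPM in TG−. The groups overlapped, with a log2 difference of 0.14 (standard error 0.15, adjusted p = 0.544 in edgeR's test). Cd8b1, its beta chain, stood at 1.78, 0.987 and 1.43 CPM against 1.33, 1.07 and 0.798 CPM, a log2 difference of 0.39 (standard error 0.27, adjusted p = 0.330 in edgeR's test). Mouse 43-49, the highest of all mice for Cd4, was the lowest of the TG+ mice for both CD8 chains. Macrophages and dendritic cells can also express Cd4 and Cd8a.

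The ratio of Cd4 to Cd8a within a mouse was 0.672, 1.14 and 0.748 in TG+ and 0.288, 0.546 and 0.415 in TG−. Every TG+ mouse had the higher ratio, a difference of 1.05 on the log2 scale (2-sided exact permutation test, p = 0.1, the smallest that 3 against 3 mice can give, and 0.18 after Benjamini-Hochberg adjustment over the 9 ratios computed). The ratio of Cd8a to Cd3e was lower in every TG+ mouse than in every TG− mouse, with values of 1.47, 0.991 and 1.29 against 2.92, 2.11 and 2.54 and the same exact permutation p values. The ratio of Cd4 to Cd3e lay between 0.842 and 1.15 in all 6 mice. The 9 ratios were chosen after the values were seen, and in 5 of them the groups did not overlap.

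Cd28 and Il7r showed the largest changes among the T cell genes. Cd28, the costimulatory receptor for B7 proteins, stood at 1.68, 2.33 and 1.65 CPM in TG+ and at 0.565, 0.753 and 0.553 CPM in TG− (log2 fold change 1.59, standard error 0.22, adjusted p = 0.00199 in edgeR's test). Il7r, the receptor for the survival cytokine interleukin 7, stood at 2.61, 2.40 and 1.83 CPM against 1.17, 0.683 and 0.757 CPM (log2 fold change 1.39, standard error 0.24, adjusted p = 0.00558 in edgeR's test). Cd6, an adhesion receptor of T cells, stood at 1.23, 1.41 and 1.14 CPM against 0.409, 0.543 and 0.512 CPM (log2 fold change 1.36, standard error 0.19, adjusted p = 0.00233 in edgeR's test). In all of these genes the TG+ mice lay above the TG− mice, and every TG+ library above every TG− library.

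The kinases and adaptors of T cell receptor signalling among the 16 genes were not called by edgeR's test, but DESeq2 called Zap70 and Lat higher. So did edgeR's test with library size alone and with each kidney as its own library, and it called Zap70 without the filter and in the kidney 1 libraries. The fit with each kidney as its own library counts the 2 kidneys of a mouse as independent replicates, which they are not. Zap70, the kinase recruited to the CD3 chains, reached a log2 fold change of 1.24 with adjusted p = 0.0103, and Lat, the adaptor it phosphorylates, 1.02 with adjusted p = 0.0122, both by edgeR. Lck, the kinase bound to the coreceptors, stood at 2.99, 3.32 and 1.79 CPM against 1.27, 1.42 and 1.74 CPM, so that TG+ mouse 43-75 lay just above TG− mouse 43-76. Its log2 fold change was 0.87 (adjusted p = 0.0354 by edgeR). Cd2, an adhesion receptor, had a log2 fold change of 1.24 (adjusted p = 0.0332, and called with each kidney as its own library), and Cd5, a receptor that dampens receptor signalling, had 0.93 with overlapping groups (adjusted p = 0.0858), both by edgeR. Cd27, a costimulatory receptor of the TNF receptor family that overlaps Vamp1, stood at 0.708, 1.04 and 0.717 CPM against 0.643, 0.858 and 0.368 CPM, and its groups overlapped (log2 fold change 0.39, adjusted p = 0.409 in edgeR's test).

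Several T cell calls were lost when a mouse was left out. Leaving out TG− mouse 43-76 left 0 T cell genes called, leaving out TG− mouse 43-50 left 2, and leaving out any other mouse left 3, by edgeR's test. Calls over all genes fell as well, from 732 higher with all mice to 469 without 43-76 and 504 without 43-50. Without 43-76, 15 of 16 log2 fold changes stayed above 0, with Cd247 at -0.015, and 9 T cell genes had an unadjusted p under 0.05. Cd4 was not called in any of the 6 fits without 1 mouse, with an adjusted p of 0.0145 to 0.0331 and a log2 fold change of 0.98 to 1.33. Il7r was called only in the fit without 43-26, with an adjusted p of 0.00369 to 0.0272 and a log2 fold change of 1.24 to 1.66 over the 6 fits. Cd3e was not called when a TG− mouse was left out and was called when a TG+ mouse was, with an adjusted p of 0.00609 to 0.0143 and a log2 fold change of 1.05 to 1.21. Cd6 and Cd28 were not called without 43-76 and were called in the other 5, with log2 fold changes of 1.25 to 1.45 and of 1.40 to 1.75. In the kidney 2 libraries alone Cd3e and Il7r were not called, and in the kidney 1 libraries alone Cd4 was not.

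**Figure D2:**
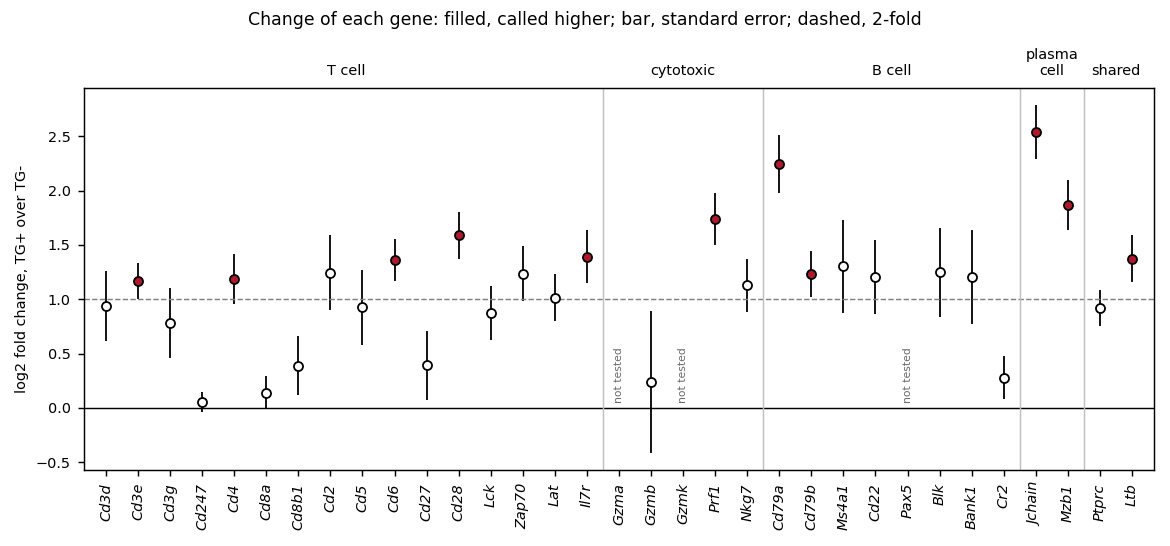
Log2 fold change of TG+ over TG− (vertical axis) for the 30 tested genes, with bars for the standard error, filled points for genes called higher and a dashed line at 2-fold. Jchain, Cd79a and Mzb1 stand highest, and Cd247, Cd8a and Gzmb lie nearest to 0.

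Of the 5 cytotoxic genes, 1 was called higher by edgeR's test, namely Prf1, against 3.77% of all tested genes, and DESeq2 called Nkg7 as well. At an adjusted p below 0.05 without a fold limit 2 were higher, against 15.4% of all tested genes, and 2 separated the groups, against 23.4%. The list's median log2 fold change in the unfiltered fit was 1.12. Prf1 encodes perforin, the pore protein of killer cells (ENSMUSG00000037202, chr10:61297833-61304680). It stood at 0.809, 0.758 and 0.617 CPM in TG+ and at 0.253, 0.193 and 0.205 CPM in TG−, from 31 to 43 reads and 10 to 13 reads per mouse. The groups were well apart. Since Prf1 passed the filter only through its TG+ values, the fit without a filter is given first, with a log2 fold change of 1.73 (adjusted p = 0.00134 in edgeR's test). With the filter it was 1.74 (standard error 0.24, adjusted p = 0.00193 in edgeR's test). Without TG− mouse 43-50 or 43-76 it was no longer called (highest adjusted p 0.0127), while its log2 fold change stayed between 1.65 and 1.86 in the 6 fits without 1 mouse.

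Nkg7, a granule membrane protein of natural killer and cytotoxic T cells, stood at 1.92, 1.43 and 1.43 CPM in TG+ and at 0.897, 0.788 and 0.491 CPM in TG−. The groups did not overlap, and the difference of 1.13 on the log2 scale (standard error 0.25) just missed the threshold (adjusted p = 0.0140 in edgeR's test). It was called higher by DESeq2, and by edgeR's test without the filter, with library size alone and with each kidney as its own library. The last of these fits counts the 2 kidneys of a mouse as independent. Gzmb, a granule protease that triggers death of the target cell, stood at 0.485, 0.335 and 0.159 CPM against 0.546, 0.0700 and 0.225 CPM. Its highest value was that of TG− mouse 43-26, and the log2 difference of 0.24 was smaller than its standard error of 0.65 (adjusted p = 0.827 in edgeR's test). The granzyme genes Gzma and Gzmk, not tested, had 10 to 13 and 8 to 23 reads per TG+ mouse and 3 to 10 and 7 to 9 reads per TG− mouse, and both overlapped between the groups. Gzmk overlaps Esm1. All 5 cytotoxic genes were highest in 43-29 among the TG+ mice and in 43-26 among the TG− mice.

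Of the 8 B cell genes, 2 were called higher, 3 were higher at an adjusted p below 0.05 without a fold limit, and 7 separated the TG+ from the TG− mice. Their median log2 fold change in the unfiltered fit was 1.21, and their summed level was 8.25 to 14.8 CPM in TG+ and 4.24 to 5.78 CPM in TG−. Cd79a and Cd79b encode the signalling pair of the B cell receptor. Cd79a (ENSMUSG00000003379, chr7:24897381-24902197) stood at 1.74, 3.10 and 2.93 CPM in TG+ and at 0.507, 0.648 and 0.471 CPM in TG−. This was the next-largest change after Jchain among the 30 tested genes of the 33 (log2 fold change 2.25, standard error 0.27, adjusted p = 0.00107 in edgeR's test), and the lowest TG+ mouse, 43-29, lay well above every TG− mouse. Cd79b (ENSMUSG00000040592, chr11:106311341-106314762) stood at 1.88, 3.10 and 2.33 CPM against 0.994, 1.16 and 0.962 CPM (log2 fold change 1.23, standard error 0.21, adjusted p = 0.00544 in edgeR's test). Cd79a was called in all 6 fits that left out 1 mouse, and Cd79b only in the fit without 43-29, so that 1 B cell gene was left without each other mouse. Cd79b was also not called in the kidney 1 libraries alone. Plasma cells keep Cd79a, so this gene does not tell the 2 cell types apart.

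The remaining B cell genes had few reads and a wide spread. Ms4a1, which encodes CD20, stood at 0.950, 1.75 and 1.02 CPM in TG+ and at 0.838, 0.420 and 0.246 CPM in TG− (log2 fold change 1.30, standard error 0.43, adjusted p = 0.0572 in edgeR's test). Cd22, an inhibitory receptor for sialic acids, stood at 1.23, 2.50 and 1.43 CPM against 0.741, 0.998 and 0.491 CPM (log2 fold change 1.21, standard error 0.34, adjusted p = 0.0356 in edgeR's test). Both were called with each kidney as its own library, a fit that counts the 2 kidneys of a mouse as independent, and Cd22 by DESeq2. Ms4a1 was called in no other fit. In both genes 43-49 stood far above the other TG+ mice, and the nearest TG− mouse lay close below the lowest TG+ mouse. Blk, a kinase of the B cell receptor, and Bank1, a scaffold protein, had log2 fold changes of 1.25 and 1.20 with adjusted p values of 0.0575 and 0.0763 in edgeR's test. Pax5, the transcription factor that maintains B cell identity, overlaps Gm12462 and Mir5120, was not tested and had 8, 19 and 11 reads in TG+ and 8, 8 and 6 reads in TG−. Cr2, the complement receptor of mature B cells and follicular dendritic cells, stood at 1.56, 2.24 and 2.03 CPM against 1.33, 1.86 and 1.62 CPM, and was the 1 B cell gene whose groups overlapped (log2 fold change 0.28, adjusted p = 0.332 in edgeR's test). All 8 B cell genes were highest in 43-49 and lowest in 43-29 among the TG+ mice.

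Both plasma cell genes rose. Jchain encodes the joining chain that links IgA and IgM antibodies (ENSMUSG00000067149, chr5:88519809-88527891), and stood at 298, 512 and 537 CPM in TG+ and at 66.4, 68.0 and 97.8 CPM in TG−. The change of 2.54 on the log2 scale (standard error 0.25, adjusted p = 0.000427 in edgeR's test) was the largest among the 30 tested genes of the 33, and the lowest TG+ mouse lay far above the highest TG− mouse. Mzb1, a chaperone of antibody assembly in the endoplasmic reticulum (ENSMUSG00000024353), stood at 4.63, 8.34 and 7.35 CPM in TG+ and at 1.68, 1.72 and 2.19 CPM in TG−. The change was 1.87 on the log2 scale (standard error 0.23, adjusted p = 0.00128 in edgeR's test). Both genes were lowest in 43-29 among the TG+ mice and highest in 43-76 among the TG− mice. Jchain, Mzb1 and Cd79a were the 3 genes called in each of the 15 other fits, with an adjusted p of at most 0.00915.

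The ratio of Jchain to Cd79a was 172, 165 and 184 in TG+ and 131, 105 and 208 in TG−, and the groups overlapped (2-sided exact permutation test, p = 0.4). The ratio of Cd79a to Cd3e was 1.09, 1.56 and 1.84 in TG+ and 0.684, 0.804 and 0.622 in TG−, higher in every TG+ mouse (2-sided exact permutation test, p = 0.1, adjusted 0.18). These ratios are on the CPM scale, which does not correct for gene length, so only their difference between the genotypes can be read, not which gene is higher.

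The shared leukocyte genes moved in the same direction. Ptprc encodes CD45, the phosphatase found on all nucleated blood cells, and stood at 29.0, 25.6 and 23.7 CPM in TG+ and at 15.4, 10.2 and 15.9 CPM in TG−. The change of 0.92 on the log2 scale (standard error 0.16, adjusted p = 0.00615 in edgeR's test) passed the limit on p but not the one on fold. Ltb, the lymphotoxin beta made by lymphocytes, which shapes lymphoid tissue, stood at 1.82, 2.38 and 1.75 CPM against 0.604, 0.753 and 0.941 CPM (log2 fold change 1.37, standard error 0.22, adjusted p = 0.00357 in edgeR's test). In both genes the groups did not overlap. Ltb was called in the fits without 43-29 and without 43-76 and missed the threshold in the other 4 that left out a mouse, the highest adjusted p being 0.0156. It was also not called in the kidney 2 libraries alone. The ratio of Cd3e to Ptprc overlapped between the groups (2-sided exact permutation test, p = 0.6), and the ratio of Jchain to Ptprc was 10.3, 19.97 and 22.7 in TG+ and 4.31, 6.66 and 6.16 in TG− (p = 0.1 by the same exact test).

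Levels of different genes were compared per length with the deposited RPKM values, averaged over the 2 kidneys of a mouse. Jchain was first in both groups, at 200.2 ± 57.9 RPKM in TG+ and 35.5 ± 8.24 RPKM in TG− (SD, n = 3 mice). Mzb1 came next at 7.39 ± 2.04 against 2.11 ± 0.340 RPKM. In TG+, Cd79a followed at 1.76 ± 0.511 RPKM and then Cd3e at 1.22 ± 0.139 RPKM, and Cd247, Lat, Nkg7, Cd8b1, Ptprc and Cd79b followed between 1.04 and 0.922 RPKM. Among these, Lat, Nkg7, Cd8b1, Ptprc and Cd79b had SDs of 0.103 to 0.288 RPKM, wider than the steps between neighbours. In TG−, Cd247 (1.02 ± 0.106 RPKM) and Cd8b1 (0.787 ± 0.188 RPKM) stood above Cd3e (0.567 ± 0.0196 RPKM), and Cd79a was at 0.4003 ± 0.0591 RPKM, in place 10. Pax5 was last in both groups. The gene lengths behind the deposited values are not given in the sources used here. With merged exon lengths of GENCODE M21 instead, Jchain stayed first and Cd79a took place 4 in TG+ and place 11 in TG−, while Cd3e moved to place 16 in TG+ and place 20 in TG−. With these lengths Cd79a lay above Cd3e in TG− too, at 0.372 against 0.188 CPM per kilobase of exon.

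The 2 kidneys of a mouse differed most in 43-49. Its kidney 1 library was higher than its kidney 2 library in 30 of the 33 genes, 15 of 16 T cell genes and 7 of 8 B cell genes, with a median ratio of 1.44, whereas 48.2% of all tested genes were higher in kidney 1 of this mouse. The summed B cell level was 18.2 CPM in its kidney 1 and 11.1 CPM in its kidney 2, and the T cell level 40.6 and 30.1 CPM. Jchain and Mzb1 together stood at 623 and 407 CPM. In the other mice between 16 and 24 of the 33 genes were higher in kidney 1, with a median ratio of 0.983 to 1.15. The macrophage and dendritic cell genes were higher in kidney 1 of 43-49 as well, in 16 of 16 genes, and their part in the result was not tested. The summed level of the 5 red blood cell genes was lower in kidney 1 in each of the 6 mice, with a ratio of kidney 1 to kidney 2 of 0.602 in 43-49 and of 0.480 to 0.876 in the others.

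With 43-49 represented by its kidney 2 alone, 9 of the 33 genes were called higher, and 3 of 16 T cell genes, since Cd4 and Il7r were no longer called. Without 43-49 altogether, 7 of the 33 were called, namely Cd3e, Cd6, Cd28, Prf1, Cd79a, Jchain and Mzb1. Without 43-29, 43-26, 43-75, 43-50 and 43-76 the numbers were 9, 7, 7, 5 and 4, each by edgeR's test.

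**Figure D3:**
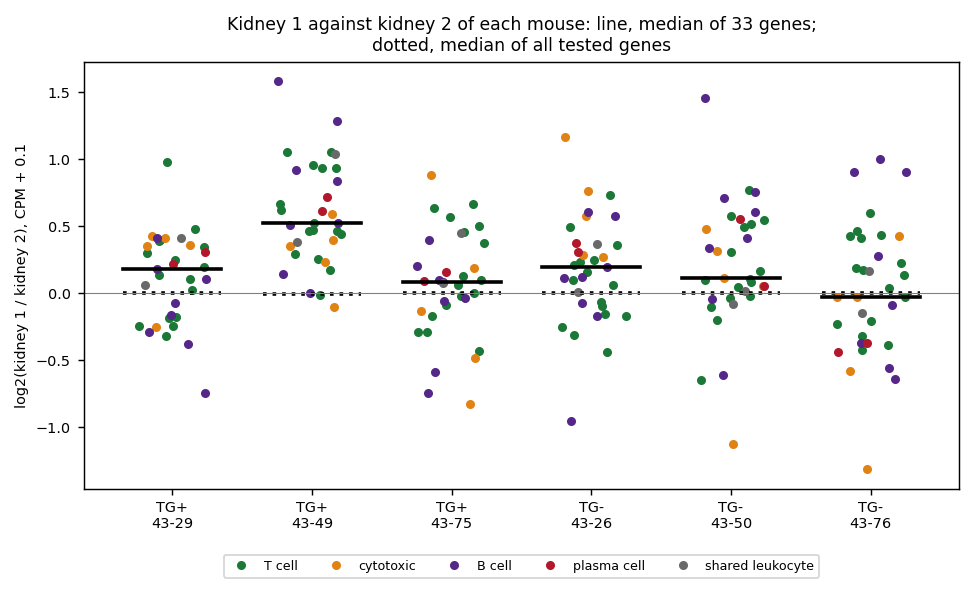
Log2 ratio of kidney 1 to kidney 2 (CPM plus 0.1) for the 33 genes in each of the 6 mice, coloured by cell type, with a line at the median of the 33 genes and a dotted line at the median of all tested genes. The points of TG+ mouse 43-49 lie almost entirely above 0, whereas those of the other mice lie on both sides.

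Further genes of the same cells were counted from written lists. Among all tested genes 3.77% were called higher. Of 23 genes of T cell receptor signalling, 4 were called higher, none lower, 16 were not called and 3 were not tested, with a median log2 fold change of 0.79 in the unfiltered fit. The number called was 1 without 43-29, 43-49, 43-50 or 43-76, 2 without 43-26 and in the kidney 1 libraries alone, and 3 without 43-75. Themis, a signalling protein of developing T cells (1.53, adjusted p = 0.00742), and Fyn, a kinase that other cells also express (1.43, adjusted p = 0.000113), changed most in edgeR's test. Malt1, a protease of the pathway, had the lowest value of the list at -0.25 (adjusted p = 0.207 in edgeR's test). Of 22 genes of T cell state, 7 were called higher, none lower, 14 were not called and 1 was not tested, with a median of 1.12. The number called was 3 without 43-50, 4 without 43-26 or 43-76 and in the kidney 1 libraries alone, and 5 without each of the other mice. Icos, a costimulatory receptor (2.07, adjusted p = 0.00130), and Ccr7, the homing receptor for lymph nodes (1.88, adjusted p = 0.00118), led this list in edgeR's test. The TG− level of Icos was 0.218 ± 0.0656 CPM (SD, n = 3). Not every TG− mouse reached the filter level of 0.193 CPM, so Icos was tested only because of its TG+ values. Foxp3, the regulatory T cell factor, had the lowest value at -0.19 (adjusted p = 0.141 in edgeR's test). It stood at 7.71 ± 0.563 CPM in TG+ and 8.77 ± 0.185 CPM in TG− (SD, n = 3), and its position overlaps Ccdc22, Flicr and Ppp1r3f.

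Of 13 natural killer cell genes with a row in the table, 1 was called higher, against 3.77% of all tested genes, none lower, 8 were not called and 4 were not tested, with a median of 0.81. The number called was 0 without 43-26, 43-29, 43-49, 43-75 or 43-76 and in the kidney 2 libraries alone, and 1 without 43-50. The activating receptor Klrk1 was called at 1.21 (adjusted p = 0.00351), the death ligand Fasl had 1.07 (adjusted p = 0.0343) and the transcription factor Eomes had the lowest value at -0.08 (adjusted p = 0.898), each in edgeR's test. Fasl had a TG− mean of 0.173 CPM, below the filter level of 0.193 CPM, so it was tested only because of its TG+ values. Of 20 genes of B cell receptor signalling and identity, 6 were called higher, against 3.77% of all tested genes, none lower and 14 were not called. At an adjusted p below 0.05 without a fold limit 17 were higher, against 15.4% of all tested genes, and the list's median was 1.14. The number called was 3 without 43-29, 43-49 or 43-76, and 11 with each kidney as its own library. Pou2af1, a coactivator of antibody gene transcription, changed most (1.95, adjusted p = 0.000142). Tnfrsf13c, the receptor for the B cell survival factor BAFF, had 1.86 (adjusted p = 0.0135), both by edgeR. The TG− level of Tnfrsf13c was 0.254 ± 0.131 CPM (SD, n = 3), and not every TG− mouse reached the filter level of 0.193 CPM. Cd72, which overlaps Tesk1, had the lowest value of the list at 0.10 (adjusted p = 0.275 in edgeR's test).

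Of 12 genes of plasma cells and antibody secretion, 2 were called higher, against 3.77% of all tested genes, none lower and 10 were not called, with a median of 0.47. Without 43-75 or 43-76 the number called was 1. Tnfrsf17, the plasma cell survival receptor, had 2.01 (adjusted p = 0.0143), and Irf4, the transcription factor needed for plasma cells, had 1.71 (adjusted p = 0.000373), both in edgeR's test. Tnfrsf17 had a TG− mean of 0.155 CPM, below the filter level of 0.193 CPM, so it was tested only because of its TG+ values. Edem2, an enzyme of protein quality control that all cells use, had the lowest value at 0.09 (adjusted p = 0.294 in edgeR's test). Of 8 genes of lymphoid tissue with a row in the table, 1 was called higher, against 3.77% of all tested genes, none lower, 4 were not called and 3 were not tested, with a median of 0.78. Lta, the lymphotoxin that pairs with the product of Ltb, was called with 1.21 ± 0.445 CPM in TG+ and 0.159 ± 0.0554 CPM in TG− (log2 fold change 2.91, adjusted p = 0.00178 in edgeR's test). The TG− mean of Lta lay below the filter level of 0.193 CPM, so the gene was tested only because of its TG+ values. The chemokine gene Ccl19 had 0.90 (adjusted p = 0.0781), and Cxcl13, the chemokine that draws B cells into follicles, had the lowest value at -0.017 (adjusted p = 0.973), both in edgeR's test.

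Genes of other cells moved with the genotype too. Among all tested genes 3.77% were called higher and 15.4% were higher at an adjusted p below 0.05 without a fold limit. Of 16 macrophage and dendritic cell genes, 2 were called higher, none lower, and 10 were higher at an adjusted p below 0.05 without a fold limit, with a median of 0.80 and a summed level of 284 to 314 CPM in TG+ and 151 to 216 CPM in TG−. The number called was 1 without 43-49, 43-50 or 43-76 and 0 in the kidney 2 libraries alone. Flt3 (1.24, adjusted p = 0.0111) and Xcr1 (1.19, adjusted p = 0.00675), both of dendritic cells, led that list, and Adgre1 had the lowest value at 0.35 (adjusted p = 0.286), each in edgeR's test. Of 5 red blood cell genes none was called by edgeR or by DESeq2, 3 were higher at an adjusted p below 0.05 without a fold limit, and the median was 0.75, with a summed level of 71.9 to 91.7 CPM in TG+ and 43.0 to 52.3 CPM in TG−. Hbb-bs (0.83) and Hbb-bt (0.82) were the highest and Hba-a1 (0.54) the lowest of the 4 tested. Their part in the result was not tested.

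Of 8 neutrophil and mast cell genes none was called by edgeR or by DESeq2 and none of the 4 tested had an unadjusted p under 0.05, with a median of 0.37 and a summed level of 6.03 to 6.99 CPM in TG+ and 2.08 to 4.62 CPM in TG−. S100a9 (0.76) and Csf3r (0.53) were the highest and Ms4a2 (0.14) the lowest of the 4. The mast cell protease genes Cpa3 and Mcpt4 were not tested. Cpa3 stood at 0.772 ± 1.05 CPM in TG+ and 0.0367 ± 0.0289 CPM in TG−, and Mcpt4 at 0.590 ± 0.852 CPM and 0.00584 ± 0.0101 CPM (SD, n = 3), with an SD above the mean in TG+ for both. Of the 10 kidney tubule genes none was called higher by edgeR or by DESeq2, with 1 higher and 5 lower at an unadjusted p under 0.05. At that limit 4241 of all 19399 tested genes were higher and 3335 lower. Slc22a6, an organic anion transporter of the proximal tubule, was called lower at -1.09 (adjusted p = 4.816e-05 in edgeR's test). At an adjusted p below 0.05 without a fold limit 3 of the 10 were lower, the others being the phosphate transporter Slc34a1 (-0.76, adjusted p = 0.000158) and the endocytic receptor Lrp2 (-0.46, adjusted p = 0.00213), both by edgeR. Of all 19399 tested genes 2105 were lower at this limit. The list's median was -0.11, with Aqp2 (0.34) and Nphs1 (0.13), a podocyte gene kept in this list, at its upper end. The part of the tubule genes in the result was not tested.

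**Figure D4:**
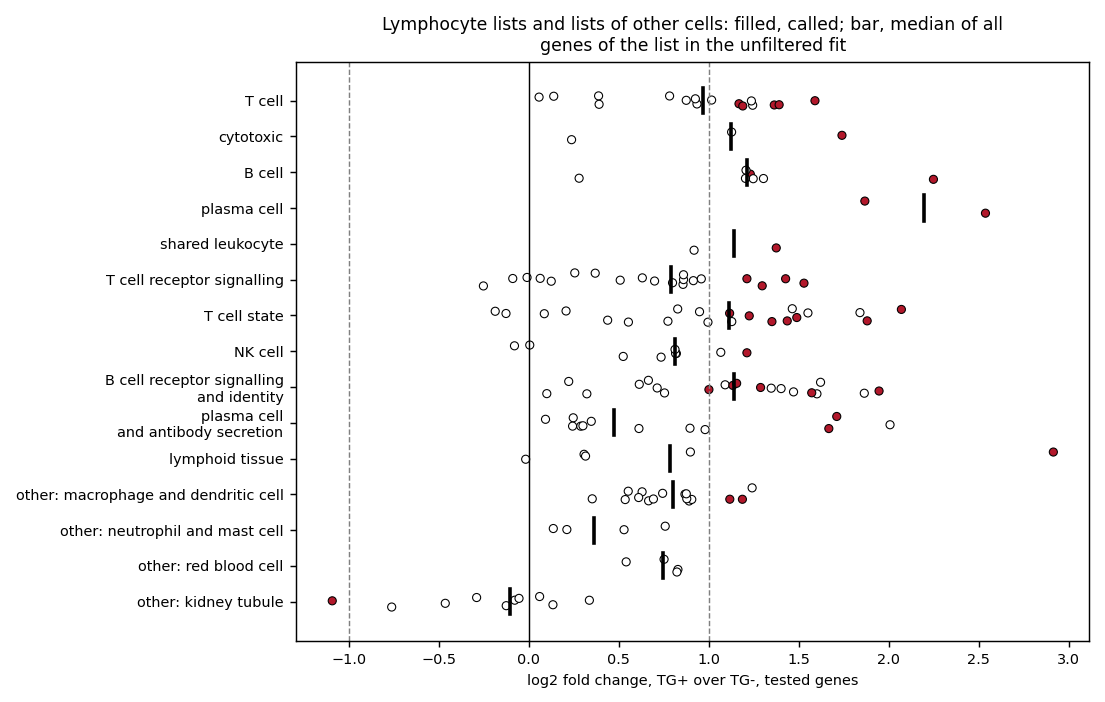
Log2 fold change of TG+ over TG− (horizontal axis) for every tested gene of the 5 lymphocyte groups, the 6 lists of further genes and the 4 lists of other cells, with filled points for called genes, dashed lines at 2-fold and bars at the list's median in the unfiltered fit. Lta, Jchain and Cd79a lie farthest to the right, and the kidney tubule list lies around 0 with Slc22a6 farthest to the left.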

How the data were processed

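Cortex RNA of 6 mice (12 libraries, TruSeq kit) was read by the authors as 51-bp single-end reads and analysed mainly with the Tuxedo tools. The submitters' processing notes name the build mm9. The annotation, the counting program and the handling of strand are not given in the sources used here. The authors deposited a count of reads per Ensembl gene and library, without normalization. The RPKM values deposited by the authors carry the term BUQ in the header, which was read as their scaling, and rest on the count plus 1. The 12 columns of log2 RPKM and the columns of the authors' own comparison (fold changes, p-values and q-values) were not used.

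Counts of the 2 kidneys were summed per mouse, filtered with filterByExpr, normalized by TMM and tested with edgeR 4.0.16 (R 4.3.3, limma 3.58.1), adjusted by the Benjamini-Hochberg method. Ratios of single genes had an exact permutation test (20 ways to split 6 mice into 3 and 3). The fit was tested on simulated data. Symbols, positions and overlaps came from GENCODE M21 (GRCm38), matched by identifier for 32642 of 37681 genes, and promoter windows from RefSeq (GRCm38.p6). No coordinate of mm9 was used. Cd244, Ccl21a and Fdcsp of the written lists had no matched row.

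Alternatives were DESeq2 1.42.0, no filter, upper-quartile scaling, library size alone, centring on the median gene, each kidney as its own library, either kidney alone, a replicate block, other thresholds and leaving out each mouse. The fit with the kidney 2 library of 43-49 alone was added after seeing the data. The genes and lists were chosen with earlier results of these data known. All 33 genes are named, and of the other lists the highest pair, the lowest and any gene called lower. Python 3.11.15, numpy 2.4.6, pandas 2.3.3 and matplotlib 3.10.9 made tables and plots.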

Additional observations from a re-analysis of the deposited data

How the results depend on the processing

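All log2 fold changes of the 33 genes that were tested kept their sign under every alternative, except Cd247 without TG− mouse 43-76 (-0.015), Cd8a in the kidney 2 libraries (-0.041) and Gzmb without TG+ mouse 43-29 (-0.15) or TG− mouse 43-50 (-0.25), whose values without 1 mouse ran from -0.25 to 1.17. Of 475 such values, 417 kept sign and call, 34 lost the call and 20 gained it. The cause was not tested.

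Leaving out 1 mouse gave 469 to 633 genes called higher and 29 to 50 lower in all, and 4 to 9 of the 33 genes. Among these were 0 to 3 T cell, 0 to 1 cytotoxic, 1 to 2 B cell and 0 to 1 shared genes, and 2 plasma cell genes in every fit. In the further lists it left 1 to 3 genes of T cell receptor signalling, 3 to 5 of T cell state, 0 to 1 of natural killer cells, 3 to 5 of B cell receptor signalling and identity, 1 to 3 of plasma cells and antibody secretion, and 1 to 2 of macrophages and dendritic cells. The lowest number for the 33 genes came without 43-76.

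DESeq2 called 820 genes higher and 48 lower, 15 of the 33, and 2 cytotoxic genes. No filter also gave 2 cytotoxic genes. Library size alone, which moved the median of all genes to 0.13, called 22 genes lower in all, and 2 cytotoxic, 2 shared, 4 plasma cell and secretion, and 5 macrophage and dendritic cell genes higher. Each kidney as its own library, which counts the 2 kidneys of a mouse as independent, gave 17 of the 33 genes. Among these were 8 T cell, 2 cytotoxic and 4 B cell genes, and the same fit gave 11 genes of B cell receptor signalling and identity. Kidney 1 alone gave 1 B cell gene, 2 of T cell receptor signalling and 4 of T cell state. Kidney 2 alone gave 3 T cell genes, 0 shared, 0 natural killer and 0 macrophage and dendritic cell genes. The kidney 2 library of 43-49 alone gave 3 T cell genes and 1 macrophage and dendritic cell gene.

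The replicate block over the pairs that a file name groups gave 14 of the 33 genes, with Cd2, Nkg7 and Cd22 beside the 11, and 779 genes higher in all, with 2 cytotoxic genes, 2 of T cell receptor signalling and 1 of macrophages and dendritic cells. The labels do not state these pairs, and the deviations of the paired mice from their group correlated at 0.337, 0.296 and -0.0236. Mice 43-29 and 43-49 each correlated best with their own partner, and 43-75 did not.

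An adjusted p below 0.05 at the same fold limits gave 72 genes lower in all, and 8 T cell, 2 cytotoxic, 2 natural killer and 13 B cell receptor signalling and identity genes higher. An adjusted p below 0.01 without a fold limit gave 1534 genes higher and 824 lower in all, 2 shared genes, 7 of T cell receptor signalling, 5 of plasma cells and secretion, 6 of macrophages and dendritic cells and 3 of red blood cells. An adjusted p below 0.05 without a fold limit gave 2982 genes higher and 2105 lower in all and 18 of the 33, with 9 T cell, 2 cytotoxic and 2 shared genes, 11 of T cell receptor signalling, 13 of T cell state, 4 of natural killer cells, 17 of B cell receptor signalling and identity, 8 of plasma cells and secretion, 10 of macrophages and dendritic cells and 3 of red blood cells.

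Most of the 33 genes had fewer than 200 reads per mouse. For Gzmb the spread between mice was wide, and Gzma, Gzmk and Pax5 were not tested. Levels of Cd247, Cd27, Gzmk and Pax5 carry the uncertainty of overlapping genes.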
